A study of Mus musculus with 8 samples.

Results

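The genes described here encode the contractile apparatus of peritubular myoid cells and of other smooth muscle, together with its regulators and genes of pericytes and calcium handling. A list of 40 genes was matched by symbol to the deposited table of 24499 gene symbols, and all 40 were found. Where a gene had several transcripts, the one with the highest average of the group means stood for it. The tested testes were those of mice labelled Dio3KO and the others those of wild-type mice, with 4 samples of each. All were at postnatal day 5 and on the 129/SVJ background. Dio3 is the type 3 deiodinase gene, whose enzyme breaks down thyroid hormones, and the title of the study concerns genes that thyroid hormone governs in newborn testis. The labels do not say how the Dio3 allele was altered or whether animals were pooled.

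Peritubular myoid cells are flat smooth-muscle-like cells that surround the seminiferous tubules. Their contraction moves fluid and sperm along the tubule, and with Sertoli cells they lay down its basement membrane. In smooth muscle, calcium and calmodulin activate myosin light chain kinase, which phosphorylates the regulatory light chain so that myosin pulls on actin. Most genes of this apparatus are driven by serum response factor, which binds CArG boxes in DNA, and by its coactivators myocardin and the myocardin-related factors. Vessels of the testis hold smooth muscle and pericytes that use many of the same genes, so that a level in whole testis does not name the cell that made it.

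The table gives group means in RPKM (reads scaled by transcript length and by library size) and, per group, the coefficient of variation (CV). Every level below is therefore the authors' mean, and neither a value for a single mouse nor the overlap of the groups could be given. Read depth per sample is unknown. Differences are log2 ratios of the means, Dio3KO-labelled over wild type, each with 0.5 RPKM added, with a standard error (SE) computed from the CVs, and this scale understates the change of low genes. "Rose" and "fell" are written of genes whose adjusted p in the authors' deposited table was below 0.05. Dio3 itself was higher in the group labelled as its knockout, at 2.95 RPKM (CV 0.29) against 0.52 RPKM (CV 0.20) in wild-type testes, and the authors' deposited table gave it an adjusted p of 0.0408. Without knowing which part of the gene was altered, this level does not check the label, and every direction below rests on that label. The extraction text names hypothalami, but 10 markers of hypothalamus and neurons summed to 3.05 RPKM in Dio3KO-labelled and 5.06 RPKM in wild-type samples, against 3112 and 2452 RPKM for 9 Sertoli cell markers.

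As a list, the contractile genes moved neither up nor down. Of the 37 that reached 1 RPKM in either group, 6 rose, 7 fell and 24 did not pass the threshold. Those shares, 16.2% and 18.9%, lie near the shares of all 15821 genes tested, of which 13.8% rose and 15.8% fell (29.7% in either direction). With each group scaled by its summed RPKM, a moderated limma test computed from the means and CVs called 8 of the 37 higher and 5 lower, against 4515 higher (28.5%) and 1932 lower (12.2%) among all genes. The median log2 ratio of the 37 was -0.01, against -0.05 over all genes tested. The genes that rose were the intermediate filament genes Des and Synm, the myosin gene Myh11 and the myosin light chain kinase gene Mylk. The leiomodin gene Lmod1 and the coactivator gene Mkl2 also rose. Those that fell were Acta2, Cnn2, Cnn3, Tpm4, Pdlim7, Myocd and Cspg4. None of the 37 reached a 2-fold difference, which 2.24% of all genes tested did. In whole tissue, fewer cells of a type and less RNA per cell cannot be told apart.

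**Figure D1:**
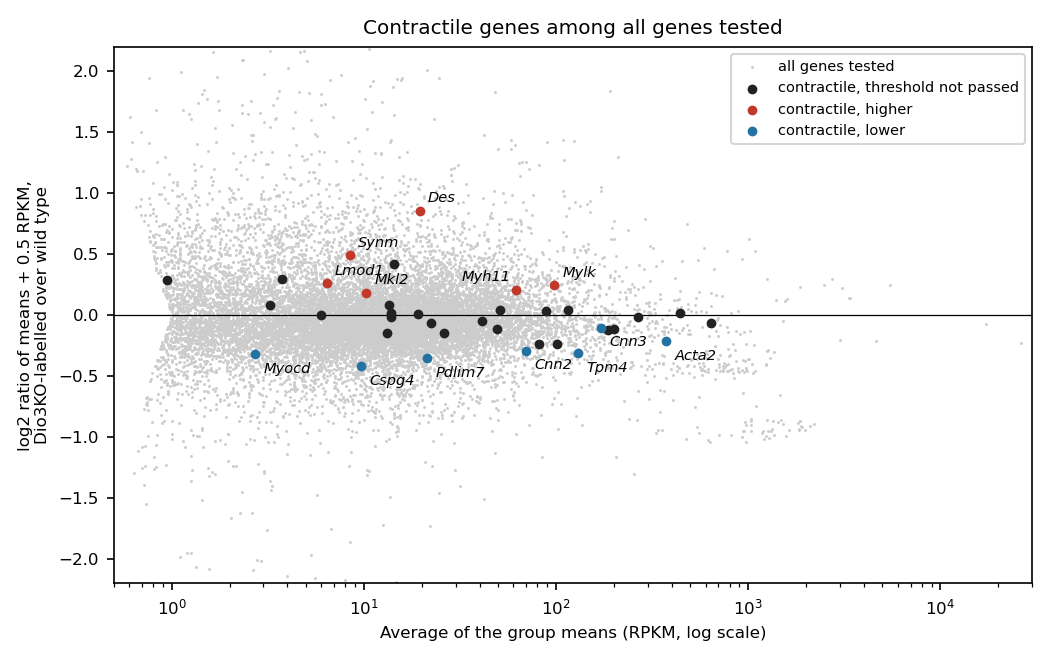
Average level (RPKM, log axis) against the log2 ratio of the group means, Dio3KO-labelled over wild type, for all 15821 genes tested (grey) and the 37 measured contractile genes (coloured by the authors' deposited adjusted p). The contractile genes lie within the cloud of all genes, with Des the highest at 0.86 and Cspg4 the lowest at -0.42, and 37 genes lie outside the plotted range of ratios.

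CArG boxes were looked for in RefSeq promoter windows on GRCm38.p6, from 250 bases before to 50 after each annotated start, because serum response factor acts through them. The box reads the same on both strands. Of the 35 contractile genes with a window in the table, 4 held an exact box (11.4%), against 488 of 27025 genes (1.81%). Allowing 1 G or C among the 6 central bases, 10 of 35 held one (28.6%), against 11.3% of all genes. Exact boxes stood in the windows of Cnn2, which fell, and of Srf, Myl9 and Myl6, which did not pass. The windows below show the promoters with exact boxes that lie outside annotated exons, and the paired boxes of Acta2, which each have 1 departure. The second of the Myl9 boxes, at position -99, also has 1 departure. Capitals mark the boxes, and all sequences are given 5′ to 3′ on the strand of the gene.
Cnn2 (chr10:79988430-79988579, plus strand): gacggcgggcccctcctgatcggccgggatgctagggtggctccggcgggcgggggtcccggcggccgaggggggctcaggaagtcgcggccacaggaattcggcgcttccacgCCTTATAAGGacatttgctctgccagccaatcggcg
Srf (chr17:46556183-46556332, minus strand): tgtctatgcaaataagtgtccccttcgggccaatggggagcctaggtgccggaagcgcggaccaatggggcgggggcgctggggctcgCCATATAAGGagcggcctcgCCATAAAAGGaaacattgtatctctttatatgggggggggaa
Myl9 (chr2:156775294-156775418, plus strand): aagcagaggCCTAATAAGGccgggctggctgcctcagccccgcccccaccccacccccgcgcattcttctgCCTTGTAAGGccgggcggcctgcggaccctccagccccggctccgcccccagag
Acta2, upstream site (chr19:34255438-34255467, minus strand): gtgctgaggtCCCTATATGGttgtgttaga
Acta2, downstream site (chr19:34255388-34255417, minus strand): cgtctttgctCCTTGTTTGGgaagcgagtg
In these windows the Cnn2 box begins 56 bases before the RefSeq start, the Srf boxes 82 and 62 bases before it, and the exact Myl9 box at position -161. The Acta2 boxes begin 84 and 34 bases before the RefSeq start, within the first exon that GENCODE M21 annotates for that gene. Actg2, Myh11, Tagln, Csrp2 and Myocd had no window in the table. A match is a description of the letters and was not tested as a binding site.

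Actin and myosin genes were among the best expressed members and parted in direction. Of 8 genes, 3 rose, 1 fell and 4 did not pass, beside 13.8% of all genes tested that rose and 15.8% that fell. Acta2, the smooth muscle alpha-actin used as the standard marker of peritubular myoid cells, had 346 RPKM (CV 0.04) in Dio3KO-labelled testes against 401 RPKM (CV 0.03) in wild-type testes. It fell by 0.21 ± 0.04 on the log2 scale (adjusted p 0.0148 in the authors' deposited table). In GENCODE M21 on mm10, Acta2 (ENSMUSG00000035783.9) spans bases 34241090 to 34255590 of the minus strand of chromosome 19. This fall depended on scaling. The RPKM of all transcripts summed to 947625 in the Dio3KO-labelled group against 1015250 in wild type, a log2 ratio of -0.10. With each group divided by its own sum, the log2 ratio of Acta2 was -0.11, with a limma adjusted p of 0.103.

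Myh11, the heavy chain of smooth muscle myosin, had 66.5 RPKM (CV 0.02) in Dio3KO-labelled testes against 57.5 RPKM (CV 0.06) in wild-type testes, a log2 ratio of 0.21 ± 0.05. Mylk, the kinase that activates this myosin, rose to 106 RPKM (CV 0.05) against 89.2 RPKM (CV 0.05) in wild-type testes, a log2 ratio of 0.24 ± 0.05. Lmod1, a leiomodin that starts new actin filaments in smooth muscle, was lower in level and rose to 7.03 RPKM (CV 0.03) against 5.78 RPKM (CV 0.06), a log2 ratio of 0.26 ± 0.04. Their adjusted p values in the authors' deposited table were 0.0417 for Myh11, 0.0216 for Mylk and 0.0191 for Lmod1. As deposited, the actin gene Acta2 thus fell while the motor and kinase genes rose, and the fall of Acta2 depended on scaling.

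The light chains showed no difference past the threshold. Myl6, the essential light chain shared by smooth and non-muscle myosin, had 446 RPKM (CV 0.02) in Dio3KO-labelled and 440 RPKM (CV 0.05) in wild-type testes, a log2 ratio of 0.02 ± 0.04. Myl9, the regulatory light chain that Mylk phosphorylates, had 265 RPKM (CV 0.04) and 268 RPKM (CV 0.06), a log2 ratio of -0.02 ± 0.05. Actn1, an alpha-actinin that cross-links actin, had 21.9 RPKM (CV 0.03) and 22.9 RPKM (CV 0.11), a log2 ratio of -0.06 ± 0.08. Actg2, the enteric smooth muscle actin, was at 13.7 and 13.8 RPKM, and its wild-type CV of 0.18 was the widest of the 8. None of the 4 passed, the authors' deposited table giving adjusted p values of 0.6008 for Myl6, 0.6746 for Myl9, 0.506 for Actn1 and 0.7629 for Actg2. Actin genes are close paralogs, and how reads shared among them were assigned is not given in the sources used here.

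**Figure D2:**
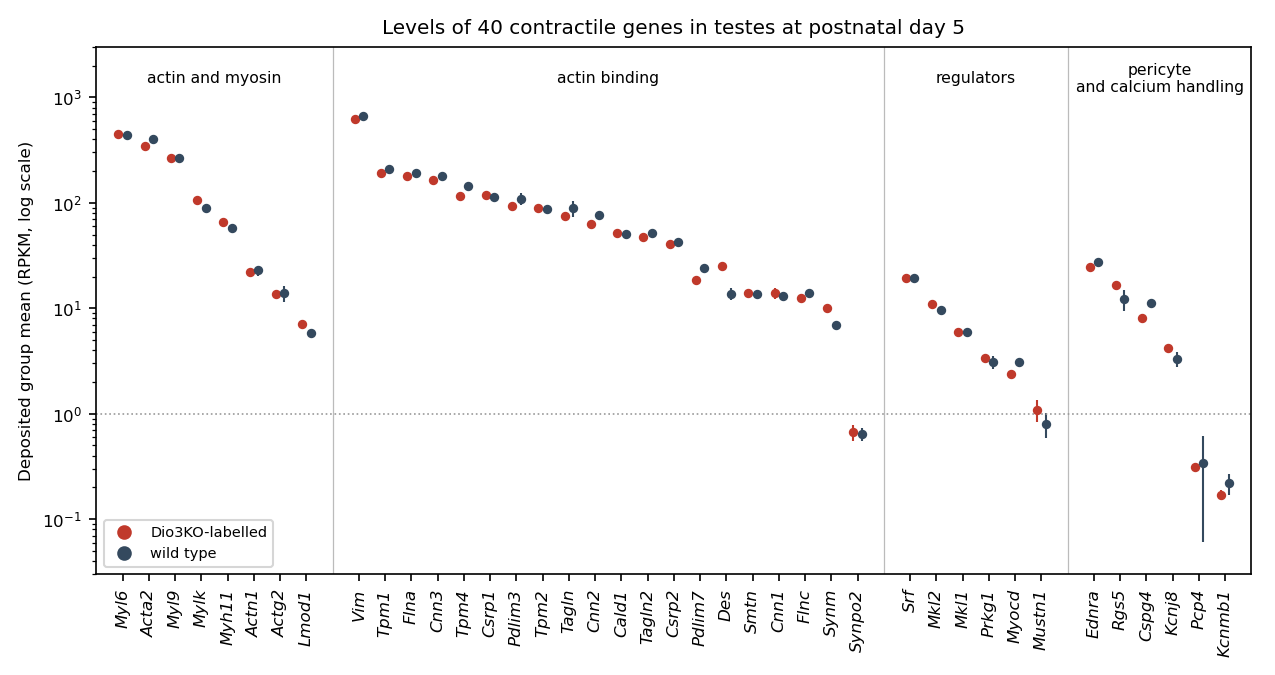
Deposited group means (RPKM, log axis) of the 40 contractile genes by subgroup and level, with the Dio3KO-labelled mean left of the wild-type mean and bars of 1 CV of the mean to either side. Most pairs nearly coincide, Des stands apart at 25.3 and 13.8 RPKM, and Synpo2, Pcp4 and Kcnmb1 lie under the dotted line at 1 RPKM.

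Among the intermediate filament genes, desmin and its partner synemin rose while vimentin did not pass. Des encodes desmin, the filament protein of muscle cells. It had 25.3 RPKM (CV 0.04) in Dio3KO-labelled testes against 13.8 RPKM (CV 0.12) in wild-type testes. This was the widest difference among the contractile genes, a ratio of 1.81 and a log2 ratio of 0.86 ± 0.09 (adjusted p 0.0041 in the authors' deposited table). A larger log2 ratio was found in 365 of the genes tested (2.31%). Des (ENSMUSG00000026208.9) spans bases 75360329 to 75368579 of chromosome 1 (plus strand), and 220 of its 3028 exonic bases (7.27%) also belong to the antisense gene Gm15179.

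Synm encodes synemin, which assembles with desmin and vimentin. It rose to 9.95 RPKM (CV 0.08) against 6.93 RPKM (CV 0.07) in wild-type testes, a log2 ratio of 0.49 ± 0.07 (adjusted p 0.0118 in the authors' deposited table). Vim encodes vimentin, the filament of mesenchymal and Sertoli cells, and was the best expressed of the 40 genes. It had 628 RPKM (CV 0.05) in Dio3KO-labelled and 658 RPKM (CV 0.04) in wild-type testes, a log2 ratio of -0.07 ± 0.05 (adjusted p 0.301 in the authors' deposited table). Desmin is also a protein of skeletal muscle, so 10 further skeletal muscle markers were summed. They came to 12.1 RPKM in Dio3KO-labelled and 11.6 RPKM in wild-type testes. Of the 4 that reached 1 RPKM, 0 passed the threshold, where 29.7% of all genes tested passed it in either direction. The highest level of any of the 10 was 3.18 RPKM. The part of skeletal muscle in the difference of Des was not tested.

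The actin binding subgroup had 19 measured genes, of which 2 rose and 4 fell, where 13.8% of all genes tested rose and 15.8% fell. The 2 that rose were Des and Synm. The 4 that fell were Cnn2, Cnn3, Tpm4 and Pdlim7, and the rest did not pass. Calponins, which restrain the myosin motor on actin, differed by family member. Cnn2, the form also found outside muscle, had 62.7 RPKM (CV 0.04) in Dio3KO-labelled testes against 76.8 RPKM (CV 0.04) in wild-type testes, a log2 ratio of -0.29 ± 0.04. Cnn3, the acidic calponin, had 166 RPKM (CV 0.02) against 178 RPKM (CV 0.03), a log2 ratio of -0.10 ± 0.03. Cnn1, the smooth muscle form, was at 13.9 RPKM in Dio3KO-labelled and 13.1 RPKM in wild-type testes and made up 5.73% and 4.88% of the summed calponin RPKM. For the 3 calponins the authors' deposited table gave adjusted p values of 0.0101 for Cnn2, 0.048 for Cnn3 and 0.4717 for Cnn1. Cnn3 did not pass a moderated limma test (adjusted p 0.0906), and its log2 ratio was 0.00 once the groups were scaled by their summed RPKM.

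Tropomyosins lie along the actin filament and govern which partners reach it. Tpm4, a mainly non-muscle form, had 116 RPKM (CV 0.06) in Dio3KO-labelled testes against 144 RPKM (CV 0.06) in wild-type testes. It fell by 0.31 ± 0.06 on the log2 scale (adjusted p 0.0173 in the authors' deposited table). Tpm1 had 193 RPKM (CV 0.03) and 209 RPKM (CV 0.05), a log2 ratio of -0.11 ± 0.04, and Tpm2 had 89.8 RPKM (CV 0.05) and 87.8 RPKM (CV 0.07), a log2 ratio of 0.03 ± 0.06. Neither passed in the authors' deposited table, at adjusted p values of 0.1299 for Tpm1 and 0.5967 for Tpm2.

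PDZ and LIM domain proteins tether kinases and other partners to actin at the Z-line and at stress fibres. Pdlim7 had 18.7 RPKM (CV 0.05) in Dio3KO-labelled testes against 24.0 RPKM (CV 0.05) in wild-type testes. It fell by 0.35 ± 0.05 on the log2 scale (adjusted p 0.0077 in the authors' deposited table). Pdlim3 had 92.6 RPKM (CV 0.03) and 109 RPKM (CV 0.13), a log2 ratio of -0.24 ± 0.10. The LIM-only proteins Csrp1, at 118 RPKM (CV 0.01) and 114 RPKM (CV 0.08), and Csrp2, at 40.8 RPKM (CV 0.08) and 42.1 RPKM (CV 0.07), had log2 ratios of 0.04 ± 0.06 and -0.04 ± 0.08. In the authors' deposited table the adjusted p was 0.1718 for Pdlim3, 0.5342 for Csrp1 and 0.5597 for Csrp2.

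Transgelins, caldesmon and filamins did not pass the threshold. Tagln, the smooth muscle transgelin also called SM22, had 74.9 RPKM (CV 0.09) in Dio3KO-labelled and 88.4 RPKM (CV 0.17) in wild-type testes, a log2 ratio of -0.24 ± 0.14. Its size was close to that of Acta2, but its spread was wider, and 877 of its 1595 exonic bases (55.0%) are shared with the antisense gene Gm48529. Tagln2, a form found in many cell types, had 47.7 RPKM (CV 0.07) and 51.6 RPKM (CV 0.03), a log2 ratio of -0.11 ± 0.05. Cald1, caldesmon, had 51.7 RPKM (CV 0.01) and 50.2 RPKM (CV 0.10), a log2 ratio of 0.04 ± 0.07. Flna, the filamin that joins actin to membrane receptors, had 178 RPKM (CV 0.02) and 194 RPKM (CV 0.04), a log2 ratio of -0.12 ± 0.03, and narrowly missed the threshold. Adjusted p values in the authors' deposited table were 0.2657 for Tagln, 0.1869 for Tagln2, 0.5714 for Cald1 and 0.0541 for Flna. The muscle filamin Flnc (12.5 and 13.9 RPKM) and smoothelin, Smtn (13.9 and 13.8 RPKM), did not pass either, and Synpo2, which encodes an actin-bundling protein, was under 1 RPKM in both groups.

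**Figure D3:**
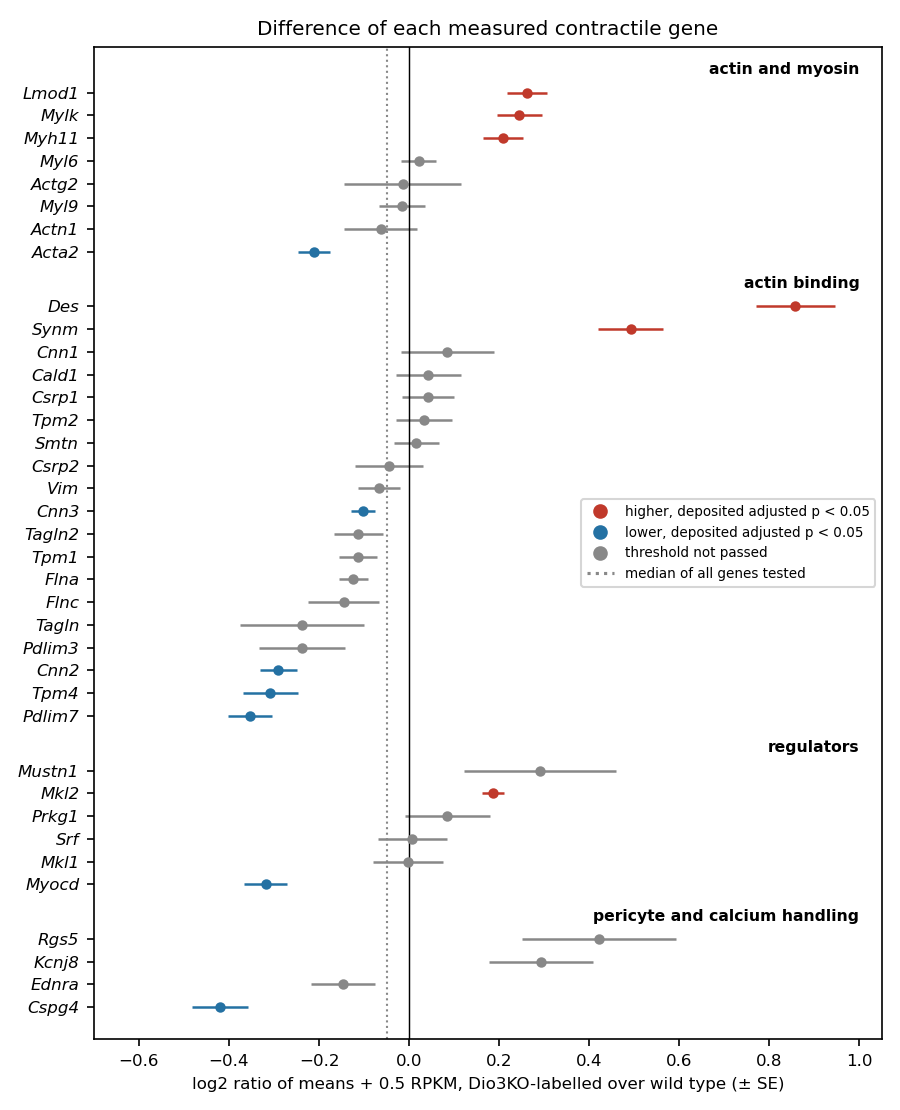
Log2 ratio of the group means, Dio3KO-labelled over wild type, with its SE computed from the CVs, for the 37 measured contractile genes in 4 subgroups. Genes that passed the deposited threshold stand on both sides of 0 in 3 of the 4 subgroups, from -0.42 for Cspg4 to 0.86 for Des, and the dotted line marks the median of all genes tested at -0.05.

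Among the 6 regulators, myocardin and one of its relatives went opposite ways while serum response factor stayed within its error. Myocd encodes myocardin, the coactivator confined in the adult mainly to heart and smooth muscle. It had 2.37 RPKM (CV 0.07) in Dio3KO-labelled testes against 3.08 RPKM (CV 0.04) in wild-type testes, a log2 ratio of -0.32 ± 0.05. Mkl2, now called Mrtfb, encodes a coactivator that moves to the nucleus when actin filaments form. It rose to 11.0 RPKM (CV 0.02) against 9.61 RPKM (CV 0.03), a log2 ratio of 0.19 ± 0.02. Adjusted p values in the authors' deposited table were 0.008 for Myocd and 0.0075 for Mkl2.

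Srf was at 19.3 RPKM (CV 0.09) in Dio3KO-labelled and 19.2 RPKM (CV 0.06) in wild-type testes, and Mkl1, now Mrtfa, was at 5.96 and 5.97 RPKM. Their log2 ratios were 0.01 ± 0.08 and 0.00 ± 0.08, with adjusted p values of 0.7665 and 0.7915 in the authors' deposited table. Prkg1, the cGMP-dependent kinase that relaxes smooth muscle, had 3.34 and 3.12 RPKM and did not pass. Mustn1, a small nuclear protein of muscle and skeleton, had 1.09 and 0.80 RPKM and entered the 37 through the Dio3KO-labelled group alone.

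Genes of pericytes and calcium handling were at lower levels. Cspg4, the NG2 proteoglycan on the surface of pericytes, fell to 8.17 RPKM (CV 0.06) in Dio3KO-labelled testes against 11.1 RPKM (CV 0.07) in wild-type testes. Its log2 ratio was -0.42 ± 0.06, the deepest fall of the contractile genes, where the authors' deposited table had an adjusted p of 0.0134. Rgs5, a pericyte gene that shortens G-protein signals, had 16.5 RPKM (CV 0.09) against 12.2 RPKM (CV 0.23), a log2 ratio of 0.42 ± 0.17. Kcnj8, a subunit of the ATP-sensitive potassium channel of vascular muscle, had 4.17 RPKM (CV 0.07) against 3.31 RPKM (CV 0.17), a log2 ratio of 0.29 ± 0.12. Neither passed in the authors' deposited table, where their adjusted p values were 0.1092 and 0.1083, but both passed the moderated limma test at 0.0357 and 0.0423. Ednra, the endothelin receptor of smooth muscle, had 24.8 RPKM (CV 0.08) and 27.5 RPKM (CV 0.06), a log2 ratio of -0.15 ± 0.07 (adjusted p 0.15 in the authors' deposited table).

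The calmodulin regulator Pcp4 (0.31 and 0.34 RPKM) and Kcnmb1, the accessory subunit of the calcium-activated potassium channel (0.17 and 0.22 RPKM), were under 1 RPKM in both groups. Of 7 further pericyte genes, 0 rose and 1 fell, where 13.8% of all genes tested rose and 15.8% fell. Their log2 ratios lay above 0 for 3 and below 0 for 4. With limma in place of the authors' adjusted p, 1 of the 7 passed upward and 1 downward, beside 18.5% and 23.1% of all genes. The 7 summed to 33.0 RPKM in Dio3KO-labelled and 35.1 RPKM in wild-type testes. Cspg4 and Rgs5, both used to mark pericytes, thus lay on opposite sides of 0. Of the 7 further genes, the one that fell was Heyl, a Notch target, at 4.72 against 9.14 RPKM.

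Most contractile genes with several transcripts gave the same call over them. Of 23 genes with 2 or more transcripts at 1 RPKM, 6 had every transcript past the threshold in one direction, 13 had none past it and 4 had some past it. These counts were not made for all genes. By the best expressed transcript, 29.7% of all genes tested passed in either direction. No gene had transcripts past it in both directions. All 7 transcripts of Pdlim7, all 4 of Cspg4 and all 3 of Myocd fell, and all 4 of Synm and all 3 of Myh11 rose. Of the 3 Mylk transcripts 2 rose, and the third, at 47.5 RPKM in Dio3KO-labelled and 40.1 RPKM in wild-type testes, had nearly the same log2 ratio (0.24) but missed the threshold (adjusted p 0.105 in the authors' deposited table). Transcripts of a gene share exons, so their values are not independent.

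Tpm1 divided by level. Its 6 best expressed transcripts, with 168 to 193 RPKM in Dio3KO-labelled and 185 to 209 RPKM in wild-type testes, had log2 ratios of -0.16 to -0.11 and did not pass. The other 6, with 70.7 to 105 RPKM and 83.1 to 126 RPKM, had log2 ratios of -0.26 to -0.23 and all fell, with adjusted p values of 0.014 to 0.0387 in the authors' deposited table. The second Ednra transcript also fell, to 10.8 RPKM in Dio3KO-labelled against 13.1 RPKM in wild-type testes, at an adjusted p of 0.0254 as the authors' deposited table lists it. For both genes, whether the gene is counted as lower therefore depends on the transcript taken.

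**Figure D4:**
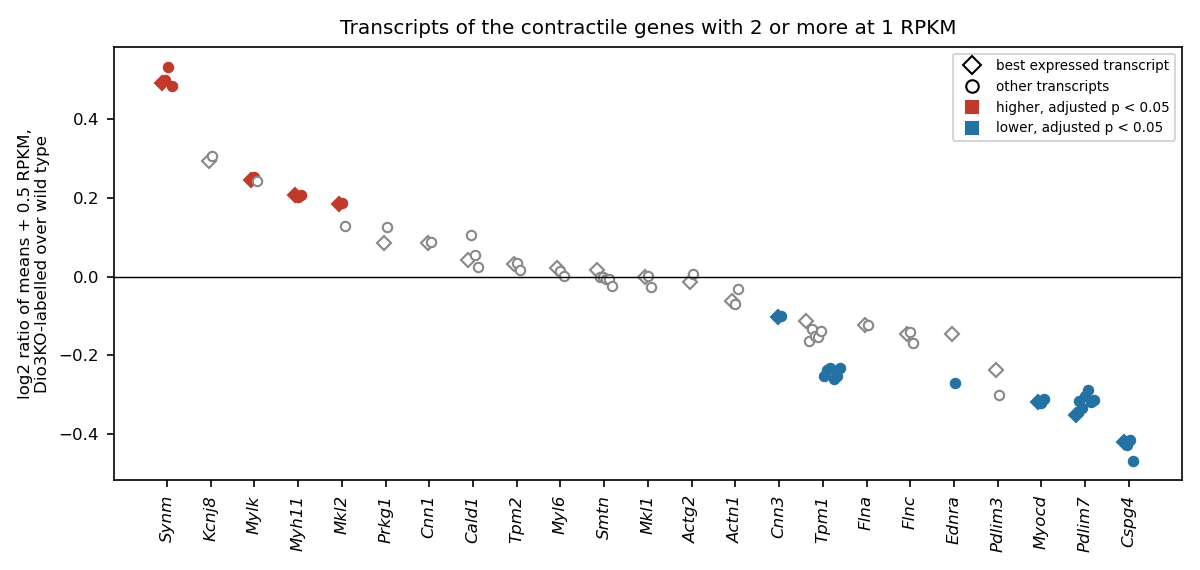
Log2 ratio, Dio3KO-labelled over wild type, of each transcript at 1 RPKM or more for the 23 contractile genes with at least 2 such transcripts. Diamonds mark the best expressed transcript, filled symbols passed the deposited threshold, and Tpm1 shows 6 open symbols between -0.16 and -0.11 and 6 filled ones between -0.26 and -0.23.

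Among genes that carry signals to the contractile apparatus, most did not pass, and the widest rise was that of a receptor. Of 36 listed, 32 reached 1 RPKM, and 6 of these rose, 2 fell and 24 missed the threshold, against the 13.8% and 15.8% of all genes. The median of their log2 ratios was 0.02. By moderated limma tests 14 were higher and 1 lower with the groups scaled by summed RPKM, a setting that called 28.5% of all genes higher and 12.2% lower. With the median gene set to 0, 11 were higher and 2 lower, beside 23.0% and 16.7% of all genes. Agtr1a, a receptor for angiotensin II, had 5.44 RPKM (CV 0.15) in Dio3KO-labelled testes against 1.45 RPKM (CV 0.15) in wild-type testes, a log2 ratio of 1.61 ± 0.13. Gucy1b3, the beta subunit of the nitric oxide receptor guanylate cyclase, rose to 9.13 RPKM against 5.86 RPKM, a log2 ratio of 0.60 ± 0.09. Arhgef12, a guanine nucleotide exchange factor, rose to 35.7 RPKM against 27.0 RPKM, and Ppp1r12a, the targeting subunit of myosin phosphatase, to 48.3 RPKM against 41.0 RPKM. Adjusted p values in the authors' deposited table were 0.0129 for Agtr1a, 0.0114 for Gucy1b3, 0.0121 for Arhgef12 and 0.0095 for Ppp1r12a.

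The others that passed were the vasopressin receptor gene Avpr1a and the protein kinase C gene Prkca, which rose, and Ppp1r12b and the cGMP phosphodiesterase gene Pde5a, which fell. Avpr1a, at 1.52 RPKM in Dio3KO-labelled and 0.86 RPKM in wild-type testes, was among the genes tested through the Dio3KO-labelled group alone. Pde5a, which ends the nitric oxide signal, was at 17.2 RPKM in Dio3KO-labelled and 22.7 RPKM in wild-type testes. The calmodulin genes Calm2 (295 and 330 RPKM) and Calm3 (181 and 173 RPKM) did not pass. Whole-testis values do not place any of these receptors in peritubular cells.

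In the list of the wider cytoskeleton and its adhesions, 34 of 36 genes were measured, and 8 rose, 1 fell and 25 did not pass, where 13.8% of all genes tested rose and 15.8% fell. As deposited, moderated limma tests put 10 of them higher and 5 lower, beside 18.5% and 23.1% of all genes. After scaling by summed RPKM the numbers were 15 higher and 3 lower, beside 28.5% and 12.2% of all genes. Vcl, vinculin, which links integrin adhesions to actin, rose to 99.4 RPKM (CV 0.05) in Dio3KO-labelled testes against 69.4 RPKM (CV 0.06) in wild-type testes, a log2 ratio of 0.51 ± 0.06. Tmsb4x, which binds actin monomers, rose to 703 RPKM against 479 RPKM, Itga7, an integrin subunit of muscle, to 6.26 RPKM against 4.60 RPKM, and Fhl2, a LIM protein of adhesions, to 95.4 RPKM against 76.8 RPKM. Adjusted p values in the authors' deposited table were 0.0045 for Vcl, 0.005 for Tmsb4x, 0.005 for Itga7 and 0.0084 for Fhl2. Zyx, Actg1, Itga8 and Pdlim5 rose as well. Actb (1615 and 1489 RPKM) and the actin-severing cofilin gene Cfl1 (312 and 297 RPKM) missed the threshold, and over the list the log2 ratios had a median of 0.05.

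**Figure D5:**
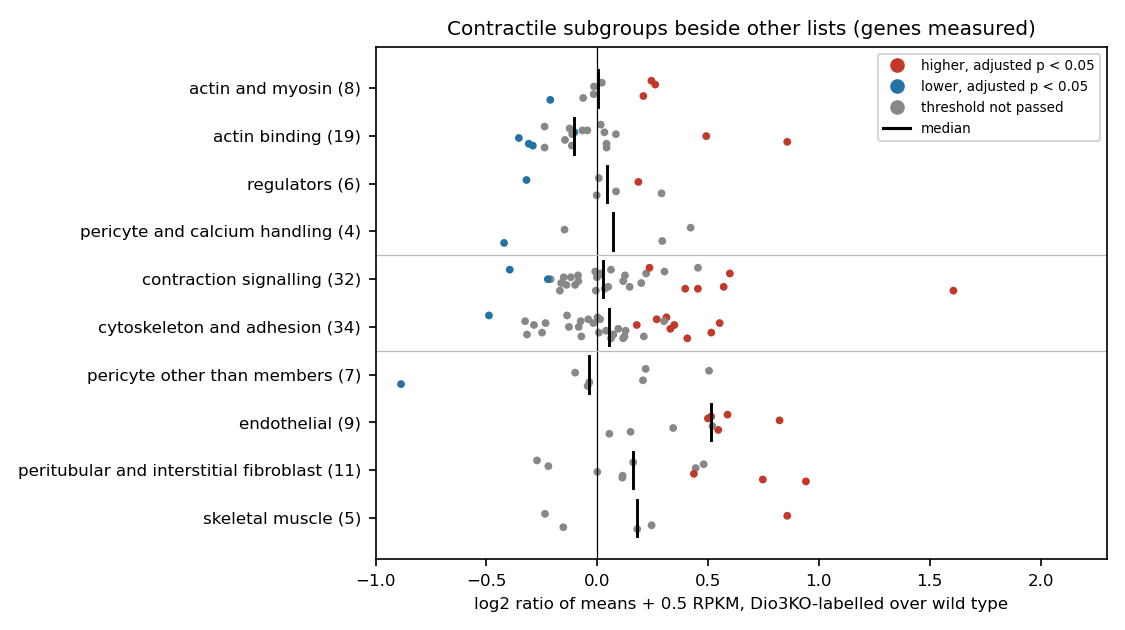
Log2 ratio, Dio3KO-labelled over wild type, of every measured gene (points) and the median (black bar) for the 4 contractile subgroups, the 2 lists of related genes and 4 lists of cell type markers (Des is counted again under skeletal muscle), with the number of genes measured in brackets. The endothelial median of 0.51 lies to the right of the medians of the contractile subgroups, which lie between -0.10 and 0.07.

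Markers of other cell types of the testis differed between the groups as well. As above, 13.8% of all genes tested rose and 15.8% fell. Of 9 endothelial markers 5 rose and 0 fell, and they summed to 98.9 RPKM in Dio3KO-labelled and 76.1 RPKM in wild-type testes. All 9 measured macrophage markers had log2 ratios above 0, 7 of them past the threshold, and they summed to 144 and 75.3 RPKM. One of the 7, Cd14, reached 1 RPKM in the Dio3KO-labelled group alone (1.53 against 0.62 RPKM). Of 11 markers of peritubular and interstitial fibroblasts 3 rose and 0 fell, with sums of 1558 and 1143 RPKM. The moderated limma test called 3 of the 11 higher and 1 lower, beside 18.5% and 23.1% of all genes tested. Sertoli cell markers went both ways, with 4 of 9 rising and 3 falling, as did Leydig cell markers, with 2 of 7 rising and 1 falling and sums of 643 and 472 RPKM. None of 6 germ cell markers passed by the authors' adjusted p, while limma called 2 lower, beside 23.1% of all genes tested. All 6 had log2 ratios below 0 (median -0.20), and they summed to 218 RPKM in Dio3KO-labelled and 244 RPKM in wild-type testes. The 40 contractile genes summed to 3322 RPKM in Dio3KO-labelled and 3483 RPKM in wild-type testes. The part of these cell types in the differences of single contractile genes was not tested.

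Within groups, the median CV of the contractile genes lay slightly below that of all genes tested. It was 0.05 in Dio3KO-labelled and 0.06 in wild-type testes, against 0.06 and 0.08 over all genes tested. The comparison was not matched by level. Of the 40 contractile genes 21 averaged 20 RPKM or more, as did 5072 of the 15821 genes tested. The wild-type CV was the larger for 21 of the 37 genes, the Dio3KO-labelled CV for 10, and both were equal for 6, while over all genes tested the wild-type CV was the larger for 59.5%. By the moderated limma test, 8 contractile genes were higher and 7 lower, where it called 18.5% and 23.1% of all genes tested. With the median gene set to 0 it called 8 and 6, beside 23.0% and 16.7% of all genes tested. All 6 genes that rose passed it in the same direction as deposited and under both other scalings. Of the 7 that fell, Cnn3 passed in none of the 3, and Acta2 did not pass with the groups scaled by summed RPKM.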

How the data were processed

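RNA sequencing of 4 Dio3KO-labelled and 4 wild-type samples of whole testes reached GEO as 1 deposited transcript table. Its columns, per the file headers, are the mean RPKM of each group, the CV of each group (a ratio of SD to mean) and the authors' adjusted p-value for the comparison of both groups. FastQC, Novoalign 2.08 and mm10 appear in the submitters' processing notes with no step assigned to them. How reads were counted, on which annotation and strand, and which test was used is not given in the sources used here.

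Each of 49139 transcripts stood 3 times among 147417 lines, and repeats were dropped. Symbols were compared without regard to case, and older symbols were not merged. Testing covered the 15821 genes that averaged 1 RPKM or more in at least 1 group. The authors' adjusted p, threshold 0.05, was the main test. An alternative took variances from the CVs, shrank them with limma 3.58.1 (R 4.3.3, squeezeVar with trend and robust options, 6 residual degrees of freedom). Its p-values had Benjamini-Hochberg adjustment across all genes tested. It set CVs below 0.0025 to that value and was tested on simulated data. The labels do not say that the 4 samples of a group came from separate litters.

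The contractile genes and all lists were chosen with earlier results of these data known. Named are Dio3, all 40 contractile genes, and from each related list up to 4 genes of smallest p past the threshold and the 2 best expressed genes that missed it. Heyl, Avpr1a, Prkca, Ppp1r12b, Pde5a, Zyx, Actg1, Itga8 and Pdlim5 were named after their values were seen, and 1 listed gene is not reported here by name. Alternatives were other pseudocounts, filters, scalings and transcripts.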

Additional observations from a re-analysis of the deposited data

How the results depend on the processing

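Counts of contractile genes higher and lower stayed within 1.5 times the reported ones under every alternative run, from 6 to 8 higher and from 5 to 8 lower. Their median log2 ratio was 0.0853 when the groups were scaled by their summed RPKM, against -0.01 as deposited. This scaling subtracts the log2 ratio of the sums, -0.10, from every gene alike. The median over all genes tested, -0.05 as deposited, therefore moves up by the same amount. With that scaling and the moderated limma test, 14 contraction signalling genes were higher and 1 lower. Of the cytoskeleton and adhesion genes, 15 were higher and 3 lower. Among all genes tested, 4515 were higher (28.5%) and 1932 lower (12.2%). With the median gene set to 0 and the same test, 11 signalling genes and 3632 of all genes (23.0%) were higher. In that setting 4 cytoskeleton and adhesion genes were lower, beside 16.7% of all genes. As deposited, the limma test called 5 cytoskeleton and adhesion genes lower, beside 23.1% of all genes. By the authors' adjusted p, the second transcript gave 2 of them lower, and 2459 of all genes lower. The cause was not tested. Without a change of scaling, limma did not call Cnn3 lower, and it did call Pdlim3 lower and Rgs5 and Kcnj8 higher.

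No paired analysis was possible because the table holds group means and no column carries a replicate number. Leaving out each replicate was not run, as no values of single samples are used here. Depth is unknown, so the error of low genes such as Mustn1 is known from the CVs alone.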
